A study of Rattus norvegicus with 9 samples.

Results

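The genes for the proteins of the mitochondrial ribosome were followed in primary neonatal rat cardiomyocytes whose Yap1 was raised or lowered with adenovirus. They were chosen by symbol, as every gene of the deposited table whose symbol begins with Mrpl or Mrps followed by a digit. The rule took 76 of the 18629 genes, 46 Mrpl genes (named for the large subunit) and 30 Mrps genes (named for the small subunit). All 46 Mrpl genes and 29 of the 30 Mrps genes passed the filter on low counts, which left 75 to test. The exception was Mrps21l, a near copy of Mrps21 with 2 counts in all 9 libraries together, both in Yap1 WT libraries.

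The cells came from the hearts of Sprague-Dawley rats 1 to 2 days old. They were plated for 18 to 20 h in 10% serum, kept for 14 h in 1% serum with 1 g/L glucose, and then exposed to glucose at 33 mM together with 100 nM of insulin during 48 h, conditions that the study uses to mimic diabetes. Every library had that treatment. The groups were adenoviral Yap1 of wild-type sequence (Ad-Yap1 WT, 3 libraries), an adenoviral short hairpin RNA against Yap1 (Ad-Yap1 shRNA, 3 libraries), and adenoviral green fluorescent protein (Ad-GFP, 3 libraries), which was the control for both. No group carried a control hairpin. The labels do not say that the 3 libraries of a group came from separate cell isolations, so the p-values measure the spread between these libraries, which may be technical.

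The mitochondrial ribosome makes the few proteins that the mitochondrial genome encodes, all of them membrane subunits of the respiratory chain and of the ATP synthase. Its ribosomal RNAs come from mitochondrial DNA, while every one of its proteins is encoded in the nucleus, made in the cytosol and imported. The small subunit reads the messenger RNA, and the large subunit joins amino acids and releases the chain at the inner membrane. Some of the proteins descend from bacterial ribosomal proteins, and others are particular to mitochondria. The adult heart draws most of its ATP from respiration, and in people inherited faults in several of these proteins cause cardiomyopathy.

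Yap1, a transcriptional coactivator of the Hippo pathway, was measured at 558, 811 and 621 CPM in Yap1 WT libraries, 95.3, 95.9 and 95.2 CPM in Yap1 shRNA libraries and 197, 197 and 190 CPM in GFP libraries. CPM is a gene's count scaled to the size of its library, after TMM scaling. Yap1 thus moved in the direction of each vector, 3.41-fold up with Yap1 WT (adjusted p = 1.63e-08) and 2.04-fold down with the shRNA (adjusted p = 1.93e-06). The species of the Yap1 sequence in the vector is not stated, so how much of its transcript the rat gene's count holds is not known. The libraries held 10960051 to 11497104 counts with Yap1 WT, 6103221 to 6357403 with the shRNA and 14868180 to 15368473 with GFP, so depth moved with the group. Cardiomyocyte identity moved with the group as well. The summed level of 12 cardiomyocyte markers was 7545 to 10102 TPM in Yap1 WT libraries, 2023 to 2464 TPM in Yap1 shRNA libraries and 20203 to 20854 TPM in GFP libraries. TPM is the authors' level per transcript length and library. In these bulk cultures, fewer cardiomyocytes and less RNA of these genes per cardiomyocyte cannot be told apart.

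Summed over each subunit, mitoribosomal protein transcripts stood highest in GFP libraries, lower with Yap1 WT and lowest with the shRNA. The 46 large subunit genes added up to 3372, 3271 and 3387 TPM in Yap1 WT libraries, to 2850, 2859 and 2901 TPM in Yap1 shRNA libraries, and to 3658, 3773 and 3796 TPM in GFP libraries. The 30 small subunit genes added up to 1866, 1864 and 1899 TPM in Yap1 WT libraries, to 1765, 1742 and 1735 TPM in Yap1 shRNA libraries, and to 2114, 2169 and 2230 TPM in GFP libraries. On this scale the 3 groups did not overlap for either subunit. Relative to the GFP mean, the large subunit sum was 10.7% lower with Yap1 WT and 23.3% lower with the shRNA, and the small subunit sum was 13.6% and 19.5% lower in those groups. On summed CPM instead of TPM the small subunit was 20.0% lower with Yap1 WT and 21.5% lower with the shRNA, and the large subunit 18.6% and 30.1% lower. The small subunit CPM sums of Yap1 WT libraries (965, 989 and 1007) and Yap1 shRNA libraries (939, 984 and 983) overlapped, and both lay below those of GFP libraries (1176, 1244 and 1280). The sums are descriptions and were not tested, and the values of single genes follow.

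The balance between the subunits was taken as a ratio. The ratio of large to small subunit TPM was 1.81, 1.75 and 1.78 in Yap1 WT libraries, 1.61, 1.64 and 1.67 in Yap1 shRNA libraries and 1.73, 1.74 and 1.70 in GFP libraries. The group means were 1.78 ± 0.0264, 1.64 ± 0.0285 and 1.72 ± 0.0195 (SD, n = 3 libraries each) in that order of groups. The Yap1 shRNA libraries lay below all others and the Yap1 WT libraries above all others. That order depended on the measure. Counted by place in the known structure, the ratio was 2.18 with Yap1 WT, 2.11 with the shRNA and 2.10 with GFP, and as a ratio of the median gene it was 1.22, 1.21 and 1.26. Without the most abundant gene of each subunit it was 1.89 with Yap1 WT, 1.66 with the shRNA and 1.89 with GFP. The order of the groups thus did not hold across these measures.

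**Figure D1:**
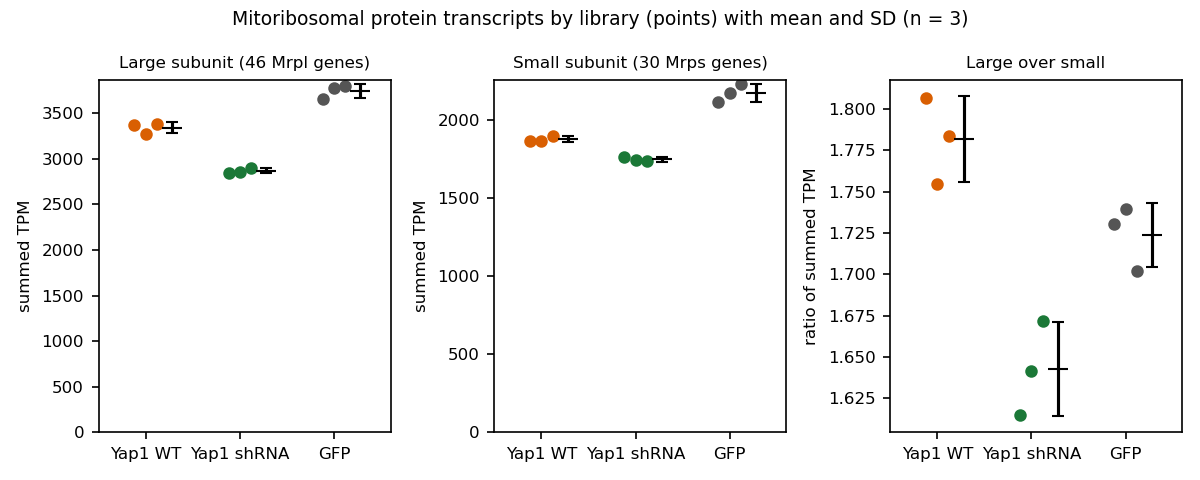
Summed TPM of the 46 Mrpl genes (left) and 30 Mrps genes (middle), and the ratio of the sums (right, axis not starting at 0), for Yap1 WT, Yap1 shRNA and GFP libraries. Points are libraries and bars show the mean and SD of 3 libraries. Both sums are lowest with the shRNA and highest with GFP, and the mean ratio is 1.78 with Yap1 WT, 1.64 with the shRNA and 1.72 with GFP.

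Levels within the mitoribosome spanned a wide range although the proteins are assembled into the same particle. Over all 9 libraries the most abundant large subunit transcripts per length were Mrpl17, which encodes a protein near the exit of the peptide tunnel, at a mean of 252 TPM, Mrpl54 at 232 TPM, Mrpl33 at 187 TPM and Mrpl23 at 160 TPM. The most abundant small subunit transcripts were Mrps21 at 245 TPM, Mrps18a at 139 TPM, Mrps18b at 125 TPM and Mrps7 at 119 TPM. The lead within a subunit changed with the group. Mrps21, the homologue of a small bacterial protein, had 262, 230 and 255 TPM in Yap1 WT libraries, 167, 166 and 140 TPM in Yap1 shRNA libraries and 320, 323 and 342 TPM in GFP libraries. Mrps18b had 97.2, 114 and 110 TPM in Yap1 WT libraries, 175, 171 and 171 TPM in Yap1 shRNA libraries and 91.6, 95.9 and 96.3 TPM in GFP libraries. Mrps18b therefore exceeded Mrps21 in all 3 Yap1 shRNA libraries, and Mrps21 was the higher of the pair in the other 6.

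At the low end, Mrpl1 (the homologue of the bacterial L1 stalk protein), Mrpl30 and Mrps28 averaged 6.44, 1.31 and 2.57 TPM. Mrpl1 was uneven among replicates, at 5.62, 0 and 10.1 CPM in Yap1 WT libraries, 5.11, 4.55 and 0.161 CPM in Yap1 shRNA libraries and 4.02, 1.89 and 4.14 CPM in GFP libraries. Mrpl30 had 0.827, 1.03 and 1.11 CPM in Yap1 WT libraries, 0, 1.35 and 0 CPM in Yap1 shRNA libraries and 1.46, 1.83 and 1.97 CPM in GFP libraries. Its call with the shRNA (log2 fold change -1.98, SE 0.68, adjusted p = 0.0172) was lost without Yap1 shRNA replicate 1 (adjusted p = 0.0715) or replicate 3 (0.0707). Mrps28 had 75 counts in all libraries together and 0.413, 1.03 and 0.769 CPM with Yap1 WT, 0.958, 1.35 and 1.29 CPM with the shRNA and 0.485, 0.338 and 1.02 CPM with GFP. These 3 genes carried the widest errors of the 75. For the family as a whole the replicates were close: the median coefficient of variation of the 75 genes was 5.78% with Yap1 WT, 7.42% with the shRNA and 5.39% with GFP, against 8.04%, 9.17% and 5.88% for all 13708 genes tested.

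The comparison of Yap1 WT with GFP asks what added Yap1 did to these transcripts. Most of them were lower and few were higher. With Yap1 WT, 44 of the 75 genes tested fell (58.7%) and 3 rose (4.0%), where 31.8% of all 13708 genes fell and 32% rose, and 28 were not called. A gene is called at an adjusted p below 0.05 in edgeR's quasi-likelihood test, adjusted over all genes tested (Benjamini-Hochberg). The median log2 fold change of the 75 genes was -0.26, beside 0.00 for all genes. Of the 46 large subunit genes 28 fell and 2 rose, with a median of -0.28, and of the 29 small subunit genes 16 fell and 1 rose, with a median of -0.22. The deposited TPM moved the median of all genes up by 0.14 on the log2 scale in this comparison. On that scale 28 of the 75 genes were called lower and 8 higher.

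The lead of this comparison was Mrps36 (NCBI gene 294696, chromosome 2, 30740620 to 30750916, minus strand, rn6). Mrps36 was named as a small subunit protein but is known as a subunit of the oxoglutarate dehydrogenase complex of the citric acid cycle, and it is absent from the solved mitoribosome structures. Mrps36 had 32.3, 25.7 and 33.3 CPM in Yap1 WT libraries and 65.9, 67.8 and 66.9 CPM in GFP libraries. The groups were far apart, 2.2-fold lower in the Yap1 WT libraries (log2 fold change -1.13, SE 0.08, adjusted p = 1.28e-07). Next came Mrps17 (chromosome 12, 30570386 to 30573670, minus strand, rn6), a bacterial-type protein that binds the small ribosomal RNA. Mrps17 had 29.1, 30.4 and 30.7 CPM in Yap1 WT libraries and 50.3, 54.3 and 52.4 CPM in GFP libraries (log2 fold change -0.80, SE 0.06, adjusted p = 1.85e-07). Mrps35, a mitochondria-specific small subunit protein, had 21.9, 21.4 and 21.7 CPM with Yap1 WT and 37.0, 38.4 and 35.1 CPM with GFP. Mrps35 fell by 0.77 on the log2 scale (SE 0.07, adjusted p = 5.75e-07).

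Other leading falls with Yap1 WT lay in both subunits. Mrpl15, of the bacterial type, had 43.7, 42.1 and 38.3 CPM with Yap1 WT and 74.8, 72.6 and 82.2 CPM with GFP (log2 fold change -0.89, SE 0.08, adjusted p = 8.64e-07). Mrpl23, the homologue of a bacterial protein at the tunnel exit, had 30.2, 26.4 and 28.6 CPM with Yap1 WT and 52.1, 53.4 and 50.7 CPM with GFP (-0.87, SE 0.08, adjusted p = 1.02e-06). Mrps25 is specific to mitochondria and had 22.2, 22.7 and 23.5 CPM with Yap1 WT and 41.8, 46.3 and 44.6 CPM with GFP (-0.96, SE 0.09, adjusted p = 1.09e-06). Every Yap1 WT library lay below every GFP library in these genes, which follows from their choice by p in this comparison. Falls were small in Mrpl17 and Mrpl54, the most abundant large subunit genes. Mrpl17 had 143, 136 and 138 CPM with Yap1 WT and 153, 154 and 165 CPM with GFP (-0.18, SE 0.05, adjusted p = 0.0101). Leaving out GFP replicate 3 ended its call (adjusted p = 0.0538), as did library size scaling (0.482), and the sign turned on the TPM scale (0.02, adjusted p = 0.72). Mrpl54 had 60.3, 61.9 and 62.5 CPM with Yap1 WT and 69.4, 71.4 and 76.9 CPM with GFP (-0.24, SE 0.07, adjusted p = 0.00984), and likewise lost its call without GFP replicate 3 (adjusted p = 0.0511), with library size scaling (-0.10, 0.213), with the length trend removed (-0.09, 0.183) and on the TPM scale (-0.06, 0.396).

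The genes that rose with Yap1 WT numbered 3, all encoding proteins particular to mitochondria. Mrpl45, which anchors the ribosome to the inner membrane, had 78.5, 83.4 and 82.8 CPM with Yap1 WT and 62.1, 70.6 and 68.5 CPM with GFP (log2 fold change 0.28, SE 0.06, adjusted p = 0.00116). Mrps31 had 28.4, 35.1 and 31.9 CPM with Yap1 WT and 25.5, 23.8 and 25.8 CPM with GFP (0.34, SE 0.08, adjusted p = 0.00224). Mrpl43 had 39.7, 42.6 and 44.2 CPM with Yap1 WT and 34.6, 36.5 and 37.2 CPM with GFP (0.22, SE 0.06, adjusted p = 0.00703). None of the 3 overlapped between the groups, as is usual for called genes, and the share of all genes without overlap was not counted. The call of Mrpl43 was lost after thinning all libraries to equal depth (adjusted p = 0.201).

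**Figure D2:**
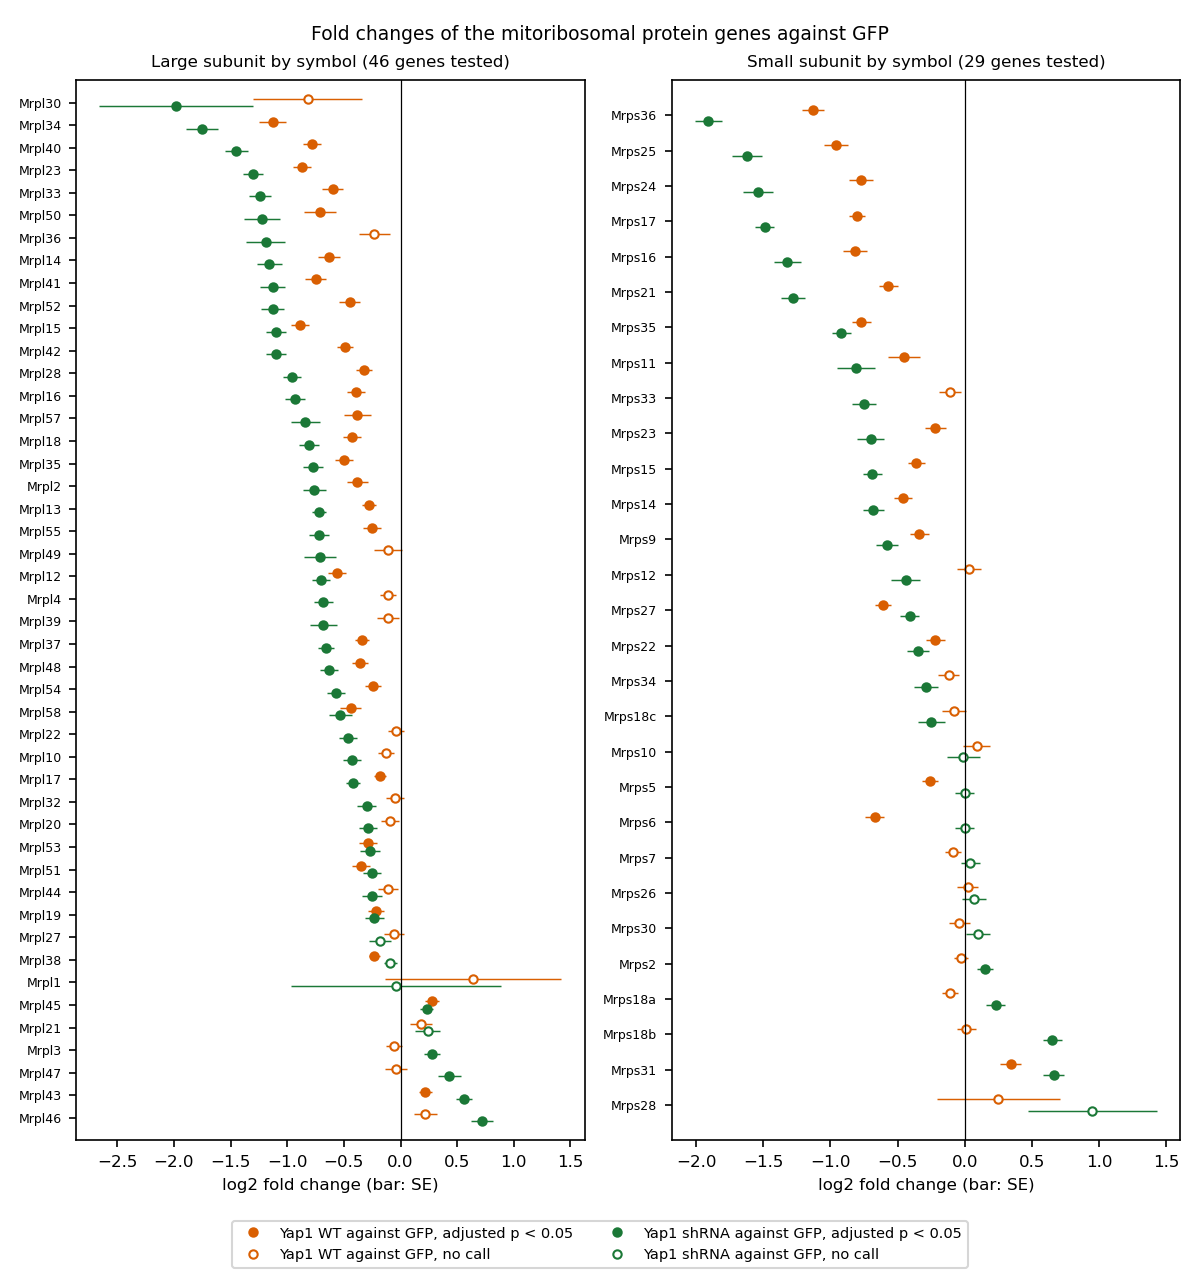
Log2 fold change against GFP of the 46 large (left) and 29 small (right) subunit genes tested, ordered by the value with the shRNA. Orange points are Yap1 WT and green points Yap1 shRNA, filled where the adjusted p is below 0.05, and bars are standard errors. Most points of both colours lie left of 0, with 44 genes called lower in Yap1 WT and 55 in Yap1 shRNA libraries.

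The comparison of Yap1 shRNA with GFP asks what lowered Yap1 did. It shares the GFP libraries with the comparison above, so a deviation of a GFP library enters both. With the shRNA, 55 of the 75 genes fell (73.3%) and 9 rose (12%), where 39.1% of all genes fell and 39.2% rose, and 11 were not called. The median log2 fold change was -0.63, beside -0.01 for all genes. Of the 46 large subunit genes 37 fell and 5 rose, with a median of -0.68. Of the 29 small subunit genes 18 fell and 4 rose, with a median of -0.41. The falls ranged from -0.23 to -1.98 and the rises from 0.15 to 0.72. The deposited TPM moved the median of all genes up by 0.16 on the log2 scale, and on that scale 17 of the 75 genes were called higher.

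Mrps17 and Mrps36 had the lowest p here too. Mrps17 had 19.5, 17.9 and 18.3 CPM in Yap1 shRNA libraries and 50.3, 54.3 and 52.4 CPM in GFP libraries, 2.81-fold lower with the shRNA (log2 fold change -1.49, SE 0.07, adjusted p = 6.46e-10). Mrps36 had 17.1, 19.2 and 17.1 CPM with the shRNA and 65.9, 67.8 and 66.9 CPM with GFP, 3.76-fold lower (-1.91, SE 0.10, adjusted p = 1.28e-09). Each was also below its Yap1 WT libraries. Mrps25 had 11.7, 14.3 and 17.1 CPM with the shRNA and 41.8, 46.3 and 44.6 CPM with GFP (-1.62, SE 0.11, adjusted p = 1.15e-08). Mrps21 had 23.9, 24.9 and 20.9 CPM with the shRNA and 53.8, 55.6 and 60.2 CPM with GFP (-1.28, SE 0.09, adjusted p = 1.54e-08), and with Yap1 WT it fell by 0.57 (SE 0.07, adjusted p = 2.19e-05). The near copy Mrps21l could take reads of Mrps21, but it was given only 2. Mrpl40, of the mitochondria-specific part of the large subunit, had 10.9, 13.8 and 12.5 CPM with the shRNA and 32.7, 35.4 and 33.5 CPM with GFP (-1.45, SE 0.10, adjusted p = 1.83e-08). Mrps24, whose bacterial counterpart lies where the messenger RNA enters, had 9.58, 12.6 and 12.7 CPM with the shRNA and 32.2, 33.8 and 35.2 CPM with GFP (-1.54, SE 0.11, adjusted p = 1.89e-08). These 6 genes were chosen by their p in this comparison, so the distance between their groups follows from the choice.

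Rises with the shRNA were smaller than the leading falls. Mrps18b (NCBI gene 294230, chromosome 20, 3344870 to 3350929, plus strand, rn6), a mitochondria-specific paralog of a bacterial small subunit protein, had 96.1, 100.0 and 98.8 CPM in Yap1 shRNA libraries and 59.2, 64.3 and 64.0 CPM in GFP libraries. It was 1.57-fold higher with the shRNA (log2 fold change 0.65, SE 0.07, adjusted p = 1.42e-06), while its Yap1 WT libraries, at 56.6, 67.1 and 65.4 CPM, overlapped those of GFP (0.01, SE 0.07, adjusted p = 0.885). On the TPM scale Mrps18b was called higher with Yap1 WT as well (0.18, adjusted p = 0.0258). Mrpl43 had 53.5, 54.1 and 52.4 CPM with the shRNA (0.56, SE 0.07, adjusted p = 3.33e-06) and Mrps31 had 38.8, 39.1 and 41.0 CPM (0.66, SE 0.08, adjusted p = 8.7e-06), both above all their GFP libraries given above. Mrpl46 had 29.4, 30.3 and 33.3 CPM with the shRNA and 17.7, 20.2 and 18.7 CPM with GFP (0.72, SE 0.10, adjusted p = 3.21e-05). Mrpl47, which sits at the tunnel exit, had 32.4, 40.6 and 33.9 CPM with the shRNA and 27.7, 27.9 and 23.7 CPM with GFP (0.43, SE 0.10, adjusted p = 0.00176). Mrpl3, a bacterial-type protein near the peptidyl transferase centre, had 66.1, 77.2 and 75.3 CPM with the shRNA and 57.3, 61.4 and 61.1 CPM with GFP (0.28, SE 0.07, adjusted p = 0.00327). Mrpl46 with Yap1 WT, at 18.8, 24.4 and 22.9 CPM, was not called (0.22, SE 0.10, adjusted p = 0.0714), and it was called higher under 6 of the alternatives. The other rises were Mrpl45 (0.23, adjusted p = 0.00518), Mrps18a (0.23, adjusted p = 0.00691) and Mrps2 (0.15, adjusted p = 0.0285). With no count filter the call of Mrpl45 was lost (0.15, adjusted p = 0.0641).

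**Figure D3:**
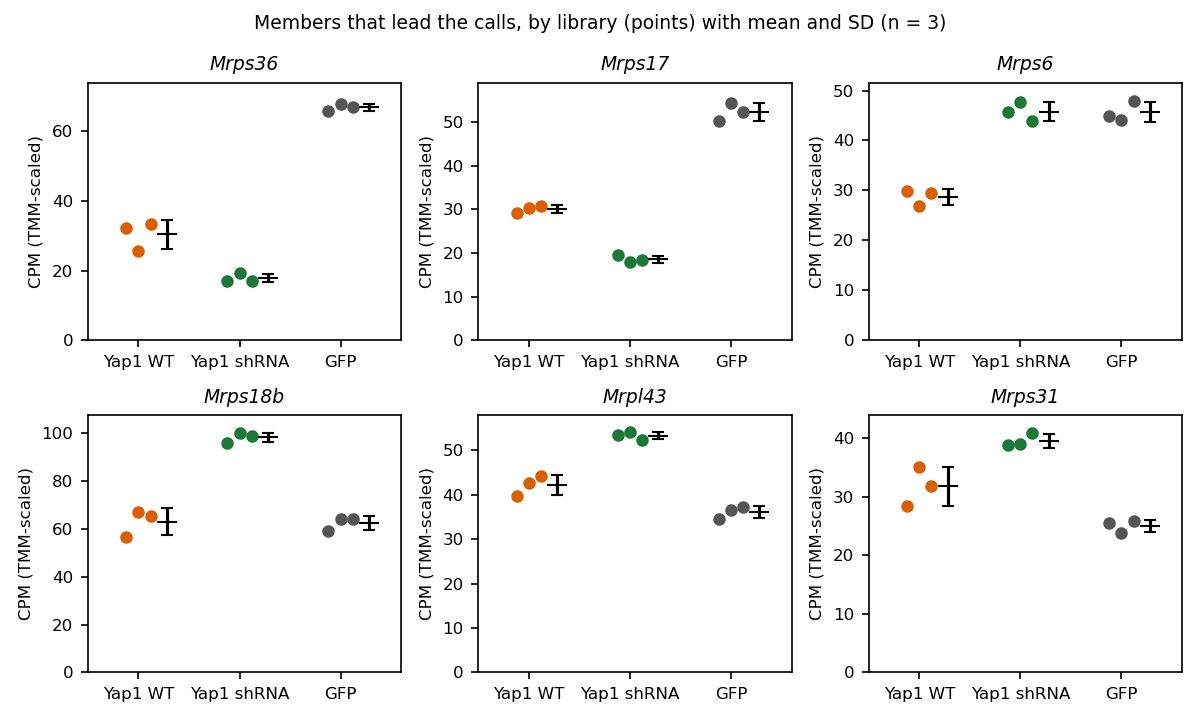
CPM after TMM scaling of 6 genes in Yap1 WT, Yap1 shRNA and GFP libraries, with points for libraries and bars for the mean and SD (n = 3). Mrps36 and Mrps17 are lowest with the shRNA and highest with GFP. Mrps6 is lowest with Yap1 WT, Mrps18b is highest with the shRNA, and Mrpl43 and Mrps31 are highest with the shRNA and lowest with GFP.

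Set side by side, the comparisons with GFP gave no gene called in opposite directions. Fall calls were shared by 41 genes and rise calls by 3 (Mrpl43, Mrpl45 and Mrps31). A further 14 genes fell with the shRNA without a call with Yap1 WT, 6 rose with the shRNA without a call with Yap1 WT (Mrpl3, Mrpl46, Mrpl47, Mrps2, Mrps18a and Mrps18b), and 3 fell with Yap1 WT without a call with the shRNA (Mrpl38, Mrps5 and Mrps6). Because the GFP libraries are common to both, these counts are a description. The share of all genes with the same patterns was not counted, so shared calls are not read as particular to this family.

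The direct comparison of Yap1 WT with Yap1 shRNA tests the difference between the vectors, and the GFP libraries enter it only through the shared estimate of spread. In it 41 of the 75 genes were higher with Yap1 WT (54.7%) and 12 were lower (16%), where 31.2% of all genes were higher and 31.3% lower, and the median log2 difference was 0.28, beside 0.04 for all genes. Large subunit genes gave 28 higher and 5 lower, with a median of 0.36, and small subunit genes 13 higher and 7 lower, with a median of 0.17. Of the 41 genes that fell against GFP in each group, 32 were higher in Yap1 WT than in Yap1 shRNA libraries, 8 were not called and 1, Mrps27, was lower. The lowest p among the genes higher with Yap1 WT belonged to Mrps17 (log2 difference 0.70, SE 0.08, adjusted p = 4.51e-06), Mrps21 (0.71, SE 0.09, adjusted p = 1.62e-05) and Mrpl28 (0.64, SE 0.08, adjusted p = 2.51e-05), followed by Mrpl4, Mrps36 and Mrpl42. Mrpl28 had 38.7, 36.3 and 34.7 CPM with Yap1 WT, 24.6, 22.6 and 23.2 CPM with the shRNA and 41.7, 47.2 and 47.9 CPM with GFP. Mrpl4, which lines the peptide tunnel, had 69.9, 69.8 and 74.3 CPM with Yap1 WT, 45.8, 46.5 and 51.0 CPM with the shRNA and 69.8, 82.7 and 77.8 CPM with GFP. The Yap1 shRNA libraries of Mrpl4 lay below both other groups, which overlapped (Yap1 WT against GFP: -0.11, adjusted p = 0.195, and -0.17, adjusted p = 0.044 without GFP replicate 1). Mrpl42 had 35.9, 32.0 and 34.0 CPM with Yap1 WT, 20.4, 20.9 and 25.4 CPM with the shRNA and 47.4, 47.4 and 48.3 CPM with GFP, with no overlap between any groups.

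Genes lower with Yap1 WT than with the shRNA were led by Mrps6 (NCBI gene 100360017, chromosome 11, 32208246 to 32263999, plus strand, rn6), a bacterial-type small subunit protein. Mrps6 had 29.9, 26.8 and 29.4 CPM with Yap1 WT, 45.8, 47.7 and 43.9 CPM with the shRNA and 45.0, 44.1 and 48.0 CPM with GFP. Its shRNA and GFP libraries overlapped on CPM (log2 fold change 0.00, SE 0.07, adjusted p = 0.964), and Yap1 WT stood below each (-0.67 against the shRNA, adjusted p = 3.91e-06, and -0.67 against GFP, adjusted p = 1.95e-06). On the TPM scale Mrps6 was called higher with the shRNA than with GFP (0.21, adjusted p = 0.0102). Mrps5, whose bacterial counterpart also lines the messenger RNA entry, had 32.9, 35.5 and 32.9 CPM with Yap1 WT, 41.2, 40.5 and 40.2 CPM with the shRNA and 39.1, 40.0 and 42.4 CPM with GFP, the same order on a smaller scale. Mrps18b, Mrpl43, Mrps18a, Mrpl46 and Mrpl3 completed the leading genes, with log2 differences of -0.64, -0.34, -0.34, -0.49 and -0.34. Mrps27, which carries repeats of a kind found in RNA-binding proteins, had 37.4, 35.7 and 35.8 CPM with Yap1 WT, 39.9, 42.6 and 42.8 CPM with the shRNA and 51.7, 56.0 and 58.9 CPM with GFP. Mrps27 is the gene that fell in each group and further with Yap1 WT (log2 difference -0.20, SE 0.07, adjusted p = 0.0253).

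No call against GFP in either group was made for 8 genes: Mrpl1, Mrpl21, Mrpl27, Mrps7, Mrps10, Mrps26, Mrps28 and Mrps30. Mrps7, a protein of the small subunit head, had 60.9, 60.7 and 65.2 CPM with Yap1 WT, 62.6, 71.0 and 71.8 CPM with the shRNA and 65.1, 65.0 and 69.1 CPM with GFP. Mrps10 had 13.7, 11.4 and 11.6 CPM with Yap1 WT, 12, 11.6 and 10.6 CPM with the shRNA and 11.9, 11.1 and 11.5 CPM with GFP. Mrps26 had 29.0, 31.5 and 32.2 CPM with Yap1 WT, 30.3, 30.7 and 35.1 CPM with the shRNA and 27.3, 32.4 and 31.8 CPM with GFP. In these 3 small subunit genes the CPM of all groups overlapped. On the TPM scale and with the length trend removed, Mrps7 (0.25 in both, adjusted p = 0.000767 and 0.000986) and Mrps26 (0.28 and 0.29, adjusted p = 0.00457 and 0.00443) were called higher with the shRNA. On the TPM scale Mrps26 (0.19, adjusted p = 0.0439) and Mrps10 (0.25, adjusted p = 0.0282) were called higher with Yap1 WT, and Mrps30 with the shRNA (0.30, adjusted p = 0.00326). Mrps28 was called higher with the shRNA without GFP replicate 3 (1.51, adjusted p = 0.0164), on the TPM scale (0.89, adjusted p = 0.00918) and with the length trend removed (1.29, adjusted p = 0.025). Mrpl21 had 21.3, 23.7 and 24.3 CPM with Yap1 WT, 26.7, 19.7 and 25.7 CPM with the shRNA and 19.4, 21.5 and 20.2 CPM with GFP, and Mrpl27 had 31.8, 30.3 and 32.2 CPM, 28.1, 28.3 and 30.6 CPM, and 27.5, 36.7 and 34.2 CPM in the same order of groups. Mrpl27 was called lower with the shRNA without GFP replicate 1 (-0.30, adjusted p = 0.00554) and with no count filter (-0.26, adjusted p = 0.0353). Mrpl21 was called higher with the shRNA under 5 of the planned scalings, filters and corrections, at adjusted p of 0.0016 to 0.048, and without Yap1 shRNA replicate 2 (0.36, adjusted p = 0.00464), against 0.24 and 0.0569 in the fit reported here.

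Some members carry a name that does not match their place. Structures put Mrps30 and Mrps18a in the large subunit. Mrps30 had 49.2, 60.5 and 55.3 CPM with Yap1 WT, 54.0, 63.0 and 64.8 CPM with the shRNA and 54.2, 58.5 and 57.5 CPM with GFP. Moving both to the large subunit and leaving out Mrps36 gave 28 falls and 2 rises among 48 large subunit genes with Yap1 WT, and 37 falls and 6 rises with the shRNA. The 26 remaining small subunit genes gave 15 falls and 1 rise with Yap1 WT and 17 falls and 3 rises with the shRNA. With Yap1 WT 58.3% of large and 57.7% of small subunit genes fell and 4.2% and 3.8% rose, beside 31.8% and 32% of all genes. With the shRNA 77.1% and 65.4% fell and 12.5% and 11.5% rose, beside 39.1% and 39.2% of all genes. Medians by structure were -0.27 (large) and -0.24 (small) with Yap1 WT, and -0.67 and -0.43 with the shRNA, close to those by symbol.

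The paralogs Mrps18a, Mrps18b and Mrps18c, related to the same bacterial protein, were not all called in the same direction with the shRNA. Mrps18a had 48.7, 54.2 and 54.7 CPM with Yap1 WT, 65.8, 66.9 and 66.3 CPM with the shRNA and 53.0, 57.4 and 59.4 CPM with GFP. Mrps18c, the bacterial-type member of the small subunit, had 18.2, 18.8 and 20.4 CPM with Yap1 WT, 16.9, 17.0 and 16.9 CPM with the shRNA and 19.9, 22.0 and 18.5 CPM with GFP. With the shRNA, Mrps18a and Mrps18b rose by 0.23 and 0.65, and Mrps18c was called lower (-0.25, SE 0.10, adjusted p = 0.0286). The call of Mrps18c rested on each Yap1 shRNA library and on GFP replicate 2, with adjusted p of 0.0539 to 0.109 when any of these was left out. Mrps18c also lost its call in DESeq2 (-0.23, adjusted p = 0.127) and on the TPM scale (-0.03, adjusted p = 0.662). Its sign turned when the trend with transcript length was removed (0.04, adjusted p = 0.675). The call of Mrps18a was lost with no count filter (0.15, adjusted p = 0.077). The difference among the 3 paralogs was not tested.

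Genes whose human mutations cause cardiomyopathy include Mrpl3, Mrpl44 and Mrps22. Mrpl3 rose with the shRNA, as given above, and with Yap1 WT had 56.6, 61.7 and 54.0 CPM, overlapping GFP (-0.06, SE 0.07, adjusted p = 0.472). Mrpl44, which has a ribonuclease-like fold, had 22.4, 23.7 and 22.7 CPM with Yap1 WT, 18.7, 21.4 and 22.4 CPM with the shRNA and 23.0, 27.2 and 24.0 CPM with GFP. It was called lower with the shRNA (-0.25, SE 0.09, adjusted p = 0.0288), a call lost without GFP replicate 2 (adjusted p = 0.114), without Yap1 shRNA replicate 1 (0.123), in DESeq2 (0.103), on the TPM scale (0.657) and with the length trend removed (0.337). Mrps22 had 39.8, 38.0 and 40.6 CPM with Yap1 WT, 35.8, 34.9 and 37.5 CPM with the shRNA and 41.7, 48.5 and 47.6 CPM with GFP. Mrps22 fell with the shRNA (-0.35, SE 0.08, adjusted p = 0.000858) and with Yap1 WT (-0.22, SE 0.07, adjusted p = 0.0141), the last lost without GFP replicate 2 (0.0672) or replicate 3 (0.0564), in DESeq2 (0.059), with library size scaling (0.294), after thinning (0.0798) and on the TPM scale (0.502). The call with the shRNA was also lost on the TPM scale (-0.13, adjusted p = 0.0681). With the shRNA the 3 genes thus did not share a direction. With Yap1 WT only Mrps22 was called, and Mrpl44 was not (-0.11, SE 0.09, adjusted p = 0.295). By mean TPM, Mrpl3 (56.3 with Yap1 WT, 52.4 with GFP) and Mrpl44 (35.2 and 33.7) stood higher with Yap1 WT, and Mrps22 (57.8 and 59.9) lower.

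Falls were found among members of either descent. Among all genes 31.8% fell and 32% rose with Yap1 WT, and 39.1% fell and 39.2% rose with the shRNA. Of 43 members with bacterial homologues, 25 fell (58.1%) and 0 rose with Yap1 WT. With the shRNA 32 fell (74.4%) and 3 rose (7.0%), and their medians were -0.28 and -0.68. Of 31 mitochondria-specific members, 18 fell (58.1%) and 3 rose (9.7%) with Yap1 WT. With the shRNA 22 fell (71.0%) and 6 rose (19.4%), and their medians were -0.23 and -0.53. No test of the difference between these classes was made. The count of 0 rises among bacterial-type members with Yap1 WT is edgeR's. At an unadjusted p below 0.05 the count was also 0, as it was in DESeq2. It was not 0 under 3 alternatives: Mrpl21 was called higher with library size scaling (0.32, adjusted p = 0.0155), with the length trend removed (0.25, adjusted p = 0.0472) and on the TPM scale (0.34, adjusted p = 0.0195), where Mrps10 was called as well (0.25, adjusted p = 0.0282). The members lie on 19 chromosomes.

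Promoters were examined for letters known to bind factors that act on genes of mitochondrial proteins. The RefSeq table (GRCr8) held a promoter, 250 bases before to 50 bases after the annotated start, for 61 of the 76 genes. The letters searched, on both strands, were GCATGCGC for NRF1, CCGGAAGT for GABPA, AAGATGGC for YY1 and CACGTG for MYC, and no matches of different factors overlapped. YY1 letters were in 15 of the 61 promoters (24.6%), against 3.44% of 27457 rat promoters of the same length. GABPA letters were in 8 (13.1%), against 4.01% of all promoters, NRF1 letters in 5 (8.2%), against 2.66%, and MYC letters in 6 (9.84%), against 6.65%. At least 1 of the motifs stood in 27 members. With the shRNA, YY1 letters were in 8 of 45 promoters of genes that fell (17.8%). They were in 3 of 8 that rose (37.5%) and in 4 of 8 not called, so their share was lowest among the falls. With Yap1 WT they were in 6 of 35 that fell (17.1%), in 0 of 2 that rose and in 9 of 24 not called (37.5%). Whether these shares differ was not tested. A match is a run of letters and does not show binding. The sequences below are those of the pair that fell most clearly (Mrps36 and Mrps17), of the clearest rise with the shRNA (Mrps18b) and of the most abundant large subunit gene (Mrpl17), with matched letters in capitals.
Mrps36 (GRCr8, chr2:33612348-33612647, minus strand): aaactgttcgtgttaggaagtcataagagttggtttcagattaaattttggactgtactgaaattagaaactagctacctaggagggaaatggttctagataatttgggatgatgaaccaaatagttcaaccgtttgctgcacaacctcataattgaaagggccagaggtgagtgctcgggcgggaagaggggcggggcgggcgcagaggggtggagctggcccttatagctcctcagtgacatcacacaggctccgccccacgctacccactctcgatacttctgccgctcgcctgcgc
Mrps17 (GRCr8, chr12:32587763-32588062, minus strand): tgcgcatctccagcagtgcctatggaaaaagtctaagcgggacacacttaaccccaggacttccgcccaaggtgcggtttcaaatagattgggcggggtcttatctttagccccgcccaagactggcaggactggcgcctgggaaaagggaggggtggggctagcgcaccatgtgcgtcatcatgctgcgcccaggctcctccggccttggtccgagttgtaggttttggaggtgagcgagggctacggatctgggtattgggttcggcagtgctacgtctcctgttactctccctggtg
Mrps18b (GRCr8, chr20:2842756-2843055, plus strand): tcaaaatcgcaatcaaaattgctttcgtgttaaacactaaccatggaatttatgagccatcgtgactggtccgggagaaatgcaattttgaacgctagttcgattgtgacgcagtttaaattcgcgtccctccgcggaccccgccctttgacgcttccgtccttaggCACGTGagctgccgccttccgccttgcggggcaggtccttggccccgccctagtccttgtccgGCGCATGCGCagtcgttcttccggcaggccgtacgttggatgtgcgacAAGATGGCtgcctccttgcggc
Mrpl17 (GRCr8, chr1:169575650-169575949, minus strand): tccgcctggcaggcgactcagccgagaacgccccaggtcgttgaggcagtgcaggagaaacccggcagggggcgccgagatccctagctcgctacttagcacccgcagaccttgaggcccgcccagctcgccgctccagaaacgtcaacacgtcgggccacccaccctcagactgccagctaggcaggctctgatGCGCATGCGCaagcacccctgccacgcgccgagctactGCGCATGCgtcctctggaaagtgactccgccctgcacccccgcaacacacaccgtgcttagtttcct
Neither promoter of the falling pair held any of the letters searched. The Mrps18b promoter held the letters of MYC, NRF1 and YY1, in that order from the 5′ end. The Mrpl17 promoter held NRF1 letters in 2 places, the first of them readable on both strands.

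Among the factors whose letters were searched, Myc and Yy1 rose with each vector. Myc, a growth-related transcription factor, had 113, 147 and 126 CPM with Yap1 WT, 333, 374 and 352 CPM with the shRNA and 46.5, 47.1 and 51.5 CPM with GFP (log2 fold change 1.41, adjusted p = 2.7e-08 with Yap1 WT, and 2.87, adjusted p = 2.63e-11 with the shRNA). Yy1 had 47.6, 48.9 and 45.8 CPM with Yap1 WT, 117, 103 and 108 CPM with the shRNA and 35.7, 36 and 39.8 CPM with GFP (0.35, adjusted p = 0.000572, and 1.56, adjusted p = 2.7e-10). Ppargc1a, a coactivator of genes for mitochondrial proteins, went the other way, with 14.4, 13.8 and 14.8 CPM, 9.58, 11.1 and 10.8 CPM, and 30.5, 33.2 and 30.6 CPM in the same order of groups (-1.14, adjusted p = 6.69e-08, and -1.58, adjusted p = 3.61e-09). Ppara, a receptor that drives fatty acid oxidation, fell by 1.44 with Yap1 WT and 2.42 with the shRNA. Gabpb1, the partner of GABPA, rose by 0.61 with Yap1 WT and by 1.83 with the shRNA, and the level of Gabpa itself is not given here. Nrf1 was not called with Yap1 WT (0.13, adjusted p = 0.159) and was 0.21 higher with the shRNA (adjusted p = 0.0326). Of 13 listed regulators, 7 rose and 4 fell with Yap1 WT, and 8 rose and 4 fell with the shRNA. These are 53.8% and 61.5% rising, beside 32% and 39.2% of all genes, and 30.8% falling in each comparison, beside 31.8% and 39.1%. Whether any of them acts on the genes here was not tested.

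Mitoribosomal proteins that carry other symbols mostly fell as well. Of Dap3, Ptcd3, Aurkaip1, Chchd1 and Gadd45gip1, 4 fell with Yap1 WT and 4 with the shRNA, beside 31.8% and 39.1% of all genes. Their medians were -0.32 and -0.48. Gadd45gip1, a large subunit protein, had 32.6, 33.2 and 32.7 CPM with Yap1 WT, 26.3, 23.4 and 26.9 CPM with the shRNA and 38.1, 44.9 and 42.2 CPM with GFP (log2 fold change -0.35, adjusted p = 0.00115, and -0.71, adjusted p = 3.67e-06). Dap3, a GTP-binding protein of the small subunit, had 59.3, 58.3 and 62.6 CPM with Yap1 WT, 47.7, 55.5 and 56.1 CPM with the shRNA and 74.6, 75.3 and 71.4 CPM with GFP (-0.30, adjusted p = 0.00129, and -0.47, adjusted p = 3e-05). Aurkaip1 fell by 0.32 and 0.58 and Chchd1 by 0.38 and 0.48. Ptcd3 was the exception, with no call in either comparison (-0.11, adjusted p = 0.184, and -0.14, adjusted p = 0.0954).

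Genes that build the mitoribosome were called in both directions. Of 26 assembly and rRNA modification genes tested, 9 fell and 4 rose with Yap1 WT, and 15 fell and 7 rose with the shRNA, with medians of -0.05 and -0.32. The share that fell with Yap1 WT, 34.6%, was near the 31.8% of all genes, and with the shRNA 57.7% fell, beside 39.1% of all genes. The share that rose was below that of all genes in each comparison, at 26.9% beside 39.2% with the shRNA. Rbfa, a maturation factor of the small subunit, had 20.8, 17.3 and 16.6 CPM with Yap1 WT, 10.2, 11.1 and 10.3 CPM with the shRNA and 27.2, 28.2 and 27.2 CPM with GFP (log2 fold change -0.59, adjusted p = 7.26e-05, and -1.38, adjusted p = 6.04e-08). Malsu1, which keeps an immature large subunit from joining, fell by 0.34 with Yap1 WT and 1.12 with the shRNA. Fastkd2, an RNA-binding protein needed for the large subunit, had 20.3, 23.4 and 21.8 CPM with Yap1 WT, 20.9, 22.2 and 20.9 CPM with the shRNA and 14.6, 12.1 and 13.6 CPM with GFP (0.70, adjusted p = 2.24e-05, and 0.67, adjusted p = 3.71e-05). Ngrn, another large subunit assembly factor, was 0.33 higher with Yap1 WT and 0.79 higher with the shRNA, and Mterf3, also needed for the large subunit, 0.49 and 0.45 higher.

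Translation factors mostly fell. Of 15 tested, 9 fell (60.0%, beside 31.8% of all genes) and 0 rose (beside 32%) with Yap1 WT. With the shRNA 10 fell (66.7%, beside 39.1%) and 2 rose (13.3%, beside 39.2%). The medians were -0.35 and -0.42. Oxa1l, which inserts new proteins into the inner membrane, had 97.8, 92.5 and 96.5 CPM with Yap1 WT, 80.2, 88.8 and 81.4 CPM with the shRNA and 137, 153 and 150 CPM with GFP (log2 fold change -0.62, adjusted p = 1.11e-06, and -0.82, adjusted p = 5.07e-08). Gfm1, an elongation factor, fell by 0.50 and 0.38, Guf1, another elongation factor, by 0.52 and 0.99, and the release factor Mtrf1 by 0.68 and 1.27. Tufm, the elongation factor that delivers transfer RNAs, had 164, 163 and 165 CPM with Yap1 WT, 157, 165 and 160 CPM with the shRNA and 151, 169 and 165 CPM with GFP, with all groups overlapping. It was named here after its values were seen. The count of 0 rises with Yap1 WT is edgeR's and was also 0 at an unadjusted p below 0.05 and in DESeq2, but 2 genes, Lrpprc and Tufm, were called higher with library size scaling and on the TPM scale. Mtif3, an initiation factor, was among the rises with the shRNA (0.47, adjusted p = 0.00262), with no call under Yap1 WT (0.03, adjusted p = 0.835). Of 16 mitochondrial tRNA synthetases tested, 7 fell (43.8%, beside 31.8% of all genes) and 1 rose (6.2%, beside 32%) with Yap1 WT. With the shRNA 10 fell (62.5%, beside 39.1%) and 1 rose (6.2%, beside 39.2%). Iars2 fell by 0.53 with Yap1 WT and 0.64 with the shRNA, Tars2 by 0.59 and 1.03, Hars2 by 0.40 and 0.51 and Lars2 by 0.54 and 0.87. Rars2 was called in opposite directions, with -0.28 under Yap1 WT (adjusted p = 0.0272) and 0.48 under the shRNA (adjusted p = 0.000965).

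Genes for transcription and upkeep of the mitochondrial genome were called in both directions. Of 18 tested, 8 rose (44.4%, beside 32% of all genes) and 4 fell (22.2%, beside 31.8%) with Yap1 WT. With the shRNA 8 rose (44.4%, beside 39.2%) and 5 fell (27.8%, beside 39.1%), so the share of rises was near that of all genes. The medians were 0.12 and 0.24, while the summed level of the list averaged 616 TPM with Yap1 WT, 589 TPM with the shRNA and 618 TPM with GFP. Elac2, which trims transfer RNA ends, had 54.9, 67.1 and 60.3 CPM with Yap1 WT, 88.8, 94.7 and 95.2 CPM with the shRNA and 35.8, 31.2 and 31.0 CPM with GFP (log2 fold change 0.90, adjusted p = 8.77e-07, and 1.51, adjusted p = 2.36e-09). Pnpt1, which degrades mitochondrial RNA, rose by 0.86 with Yap1 WT and 0.26 with the shRNA, and Mtpap, which adds poly(A) tails in mitochondria, by 0.30 and 0.85. Hsd17b10, a subunit of the mitochondrial RNase P, had 54.2, 46.2 and 53.4 CPM with Yap1 WT, 29.1, 27.1 and 29.6 CPM with the shRNA and 82.4, 99.5 and 92.4 CPM with GFP (-0.83, adjusted p = 1.2e-06, and -1.68, adjusted p = 1.96e-09). Whether these lists differ from the mitoribosomal proteins was not tested.

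Against other large complexes, the medians of the mitoribosomal proteins lay between those of the respiratory chain and of the cytosolic ribosome. Among all genes 31.8% fell and 32% rose with Yap1 WT, and 39.1% fell and 39.2% rose with the shRNA. Of 82 oxidative phosphorylation genes tested, 78 fell (95.1%) and 1 rose with Yap1 WT. With the shRNA 78 fell (95.1%) and 2 rose, and their medians were -0.92 and -1.47. Their summed level was 42215 to 48174 TPM with Yap1 WT, 29600 to 31286 TPM with the shRNA and 75917 to 80050 TPM with GFP. Of 83 cytosolic ribosomal protein genes, 11 fell (13.3%) and 6 rose (7.2%) with Yap1 WT, both below the shares of all genes. With the shRNA 45 fell (54.2%) and 9 rose (10.8%), and their medians were -0.05 and -0.21. Of 24 genes of the import machinery, 10 fell and 3 rose, and 13 fell and 6 rose, with medians of -0.16 and -0.32. Counts of cytosolic ribosomal proteins are uncertain, since processed copies of these genes can share their reads. These counts and medians are set side by side, and the difference between lists was not tested.

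**Figure D4:**
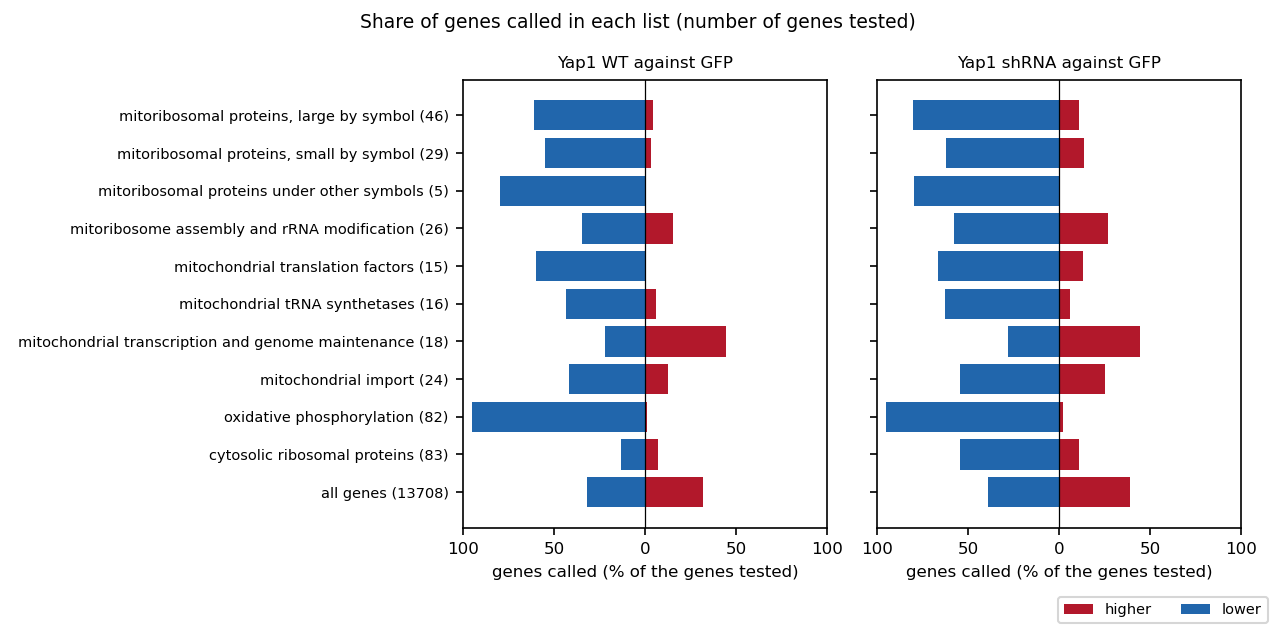
Share of the genes tested in each list that were called higher (red, to the right) or lower (blue, to the left), for Yap1 WT against GFP and Yap1 shRNA against GFP, with the number of genes tested in brackets. The mitoribosomal lists are mostly blue, between oxidative phosphorylation, at 95.1% lower in both panels, and all genes, at 31.8% and 39.1% lower.

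Cell type markers moved in the same comparisons. For scale, 31.8% of all genes fell and 32% rose with Yap1 WT, and 39.1% fell and 39.2% rose with the shRNA. Between the vectors 31.2% of all genes were higher with Yap1 WT and 31.3% lower. All 12 cardiomyocyte markers fell in each group, with median log2 fold changes of -2.08 with Yap1 WT and -4.17 with the shRNA, and all 12 were higher in Yap1 WT than in Yap1 shRNA libraries, 11 of them past the threshold (the exception was Mb, adjusted p = 0.142). Actn2, of the sarcomere's Z-disc, fell by 1.79 with Yap1 WT and 3.07 with the shRNA, and Tnnt2, cardiac troponin T, by 1.45 and 3.09. Of 10 fibroblast markers, 6 fell and 3 rose with Yap1 WT and 9 fell and 1 rose with the shRNA, and their summed level was 3488 to 4702 TPM, 2223 to 2467 TPM and 4593 to 5053 TPM in Yap1 WT, Yap1 shRNA and GFP libraries. Smooth muscle and pericyte markers (9 listed) summed to 3990 to 4905 TPM, 3633 to 3782 TPM and 6041 to 6280 TPM in the same order. Endothelial markers (9 listed) summed to 26.4 to 28.2 TPM, 38.3 to 41.4 TPM and 18.7 to 19.9 TPM. Macrophage markers (9 listed) summed to 77.1 to 78.7 TPM, 33.2 to 49.3 TPM and 57.9 to 63.6 TPM, and 8 epicardial markers to 53.5 to 55.6 TPM, 43.8 to 48.0 TPM and 58.9 to 60.9 TPM. No marker was at 0 in all 9 libraries. The part of cell composition in the values of the mitoribosomal genes was not tested.

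Transcript length moved with the fold changes too. All 75 members were shorter than the median gene, with a median relative length of 0.319 (0.328 for large and 0.317 for small subunit genes), and 62 of the 75 lay in the shortest of 5 equal classes of all genes tested by length. In that class, 2716 genes had median log2 fold changes of -0.11 with Yap1 WT and -0.29 with the shRNA, against 0.04 and 0.11 in the longest class. With the trend of counts on length removed, 41 members fell and 5 rose with Yap1 WT, and 45 fell and 13 rose with the shRNA. The medians of the large subunit were then -0.20 and -0.44 and those of the small subunit -0.19 and -0.21. Between Yap1 WT and the shRNA the median of the small subunit became -0.01, against 0.17 without the correction. The small subunit median between the vectors thus depended on whether this correction was made, while the large subunit median stayed positive, as given below. The part of length itself in these values was not tested.

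**Figure D5:**
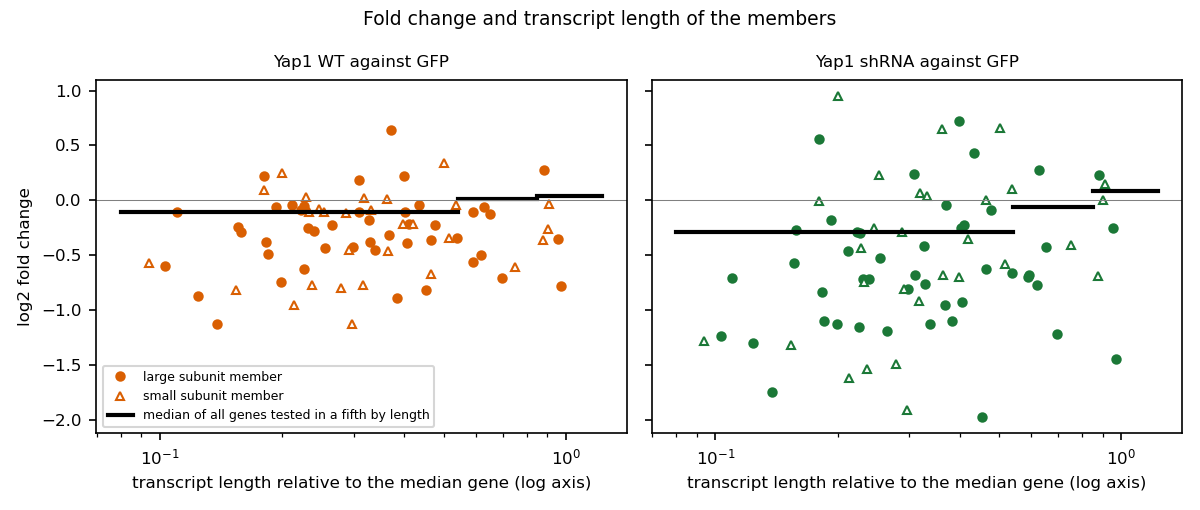
Log2 fold change of the 75 members against transcript length relative to the median gene (log axis), for Yap1 WT against GFP (left) and Yap1 shRNA against GFP (right). Filled circles are large and open triangles small subunit members, and black lines are medians of all genes tested in the 3 shortest of 5 length classes. Most members lie in the shortest class, and many of them below its medians of -0.11 and -0.29.

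Neighbouring genes matter for 17 members whose rn6 span overlaps another gene of the table, 13 of them with a gene on the opposite strand. No source says whether the library kit marks strand, so reads from bases that opposite-strand genes share may not be told apart. Overlap was taken on whole gene spans, and how many transcribed bases a pair shares was not examined. Mrpl43 overlaps Twnk, the mitochondrial DNA helicase, on the opposite strand. Twnk had 23.0, 26.1 and 28.1 CPM with Yap1 WT, 35.6, 30.7 and 38.3 CPM with the shRNA and 22.5, 21.3 and 21.4 CPM with GFP, log2 fold changes of 0.24 and 0.68 beside 0.22 and 0.56 for Mrpl43. Mrpl47 overlaps Actl6a on the opposite strand, whose values were 0.24 and 0.34 beside -0.04 and 0.43. Mrps17 lies within the listed span of Mmp17 on the same strand, at -0.65 and -2.31 beside -0.80 and -1.49, and Mmp17 averaged 13.0 CPM with Yap1 WT, 4.13 CPM with the shRNA and 20.5 CPM with GFP. Mrps6 overlaps Slc5a3 on the same strand, which rose by 1.68 and 1.73 where Mrps6 gave -0.67 and 0.00, and Slc5a3 averaged 4.53, 4.70 and 1.41 CPM. Mrps18a overlaps Rsph9 and Mrps2 overlaps RGD1306233, both under 1 CPM in every group. Mrps18b, Mrps31, Mrps36, Mrpl45 and Mrpl46 overlap no other gene of the table.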

How the data were processed

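Poly(A) RNA of the 9 libraries was selected with oligo(dT) and sequenced on a BGISEQ-500, per the labels' protocols. The authors deposited expected counts and TPM per gene in one table. The submitters' processing notes name HISAT2, Bowtie2, RSEM (1.3.1), DESeq2 (1.4.5) and the build rn6. A strand setting is not given in the sources used here.

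The deposited expected counts were rounded to whole numbers, filtered with filterByExpr (13708 of 18629 genes kept), scaled with TMM and tested with edgeR (4.0.16, R 4.3.3) in quasi-likelihood fits of all 9 libraries with group as the only term. Tests were two-sided, adjusted by Benjamini-Hochberg over all genes tested and called at 0.05 with no minimum fold. The biological coefficient of variation was 7.18%. Counting error is largest for low genes in the Yap1 shRNA libraries, the shallowest. Per-library CPM and fold changes use TMM scaling, and the deposited TPM were used to compare levels between genes and to sum them, with no test. Replicate libraries differed by more than sampling noise, so none was counted as a duplicate. The procedure was tested on simulated data.

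The members and gene lists were chosen with earlier results of these data known. Genes named were the 6 with the lowest p in each direction and comparison, the 4 most and 2 least abundant of each subunit, members with no call in both comparisons with GFP, the Mrps18 paralogs, members whose symbol and place differ, those behind human cardiomyopathy, and those of other symbols. Of other lists up to 3 with the lowest p were eligible, and marker, oxidative phosphorylation, import and cytosolic ribosome lists are given mainly as counts. Promoters are RefSeq's. Alternatives were RLE and library size scaling, DESeq2 (1.42.0), limma-trend (limma 3.58.1) on log2(TPM + 1), other count filters, fits of the 6 compared libraries, a replicate block, thinning to equal depth (6103220 counts), a length trend removed by a spline with 4 degrees of freedom, and each library left out. The table of the authors' own fold changes and the FPKM values were not used, and a group with Ad-GFP but no glucose and insulin that the labels mention was not analysed here.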

Additional observations from a re-analysis of the deposited data

How the results depend on the processing

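Among 2041 values of single named genes under the alternatives, 1956 stayed on their side of the threshold, 49 gained a call and 34 lost one. A further 2 lost their call and turned sign: Mrpl17 with Yap1 WT (0.02 on log2(TPM + 1)) and Mrps18c with the shRNA (0.04 with the length trend removed). Sign changes of values with no call are not counted in these 2. Mrpl3 with Yap1 WT, for example, was -0.06 in the fit reported here, while its mean TPM was 56.3, beside 52.4 with GFP. RLE scaling, DESeq2 and thinning kept each subunit's counts of calls within 1.5 times.

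With Yap1 WT against GFP, the large subunit had 4 rises with library size alone, on TPM and with the length trend removed, and 17 falls on TPM, and its median was -0.15, -0.12 and -0.20 in that order. The small subunit had 4 rises on TPM, and medians of -0.09 with library size alone and -0.06 on TPM. All members gave 5, 8 and 5 rises under the 3 settings and 28 falls on TPM. With the shRNA, the large median was -0.46 on TPM, -0.76 with no count filter and -0.44 with the length trend removed. The small subunit had 10, 2 and 7 rises and medians of -0.22, -0.46 and -0.21 under these, and all members had 17 rises on TPM. Between Yap1 WT and the shRNA the large median was 0.47 with library size alone, 0.29 on TPM and 0.21 with the length trend removed. The small subunit had 3 lower genes and a median of 0.28 with library size alone, where all members had 7 lower genes, and a median of -0.01 with the length trend removed. The median of all genes also moved under some of these settings. With library size alone it was 0.14 with Yap1 WT, 0.01 with the shRNA and 0.15 between the vectors. On TPM it was 0.14, 0.16 and -0.01, and in the fit reported here 0.00, -0.01 and 0.04. What moved the members under each setting was not tested.

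The subunit ratio was 1.63 with Yap1 WT, 1.42 with the shRNA and 1.60 with GFP on CPM. By structure it was 2.18, 2.11 and 2.10, over medians 1.22, 1.21 and 1.26, and without the most abundant genes 1.89, 1.66 and 1.89. By structure the large sums were 3534, 3108 and 3923 TPM and the small sums 1622, 1471 and 1867 TPM.

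Leaving out 1 library, with Yap1 WT 39 to 46 members fell and 3 to 4 rose (large 25 to 29 and 2 to 3, small 14 to 17 and 1), with medians of -0.32 to -0.27 and -0.29 to -0.19. With the shRNA 50 to 56 fell and 8 to 10 rose (large 33 to 38 and 5 to 6, small 17 to 18 and 3 to 5), with medians of -0.72 to -0.62 and -0.47 to -0.36. Between the vectors 38 to 42 were higher and 10 to 12 lower (large 26 to 30 and 4, small 10 to 14 and 6 to 8), with medians of 0.31 to 0.39 and 0.14 to 0.18. The ratio was 1.77 to 1.80 with Yap1 WT, 1.63 to 1.66 with the shRNA and 1.72 to 1.74 with GFP. The large sums were 3321 to 3379, 2854 to 2880 and 3716 to 3784 TPM and the small sums 1865 to 1882, 1738 to 1753 and 2141 to 2200 TPM. Libraries share only a number (correlations of same-numbered deviations -0.031 to 0.094), and the replicate block gave 4 rises and 44 falls with Yap1 WT, 9 and 55 with the shRNA, and 40 higher and 11 lower between them.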
